A study of Mus musculus with 12 samples.

Results

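Mouse embryonic fibroblasts in which the CH1 domain had been deleted from CBP and p300 were compared with control fibroblasts after 6 h in hypoxia at 0.1% oxygen. All samples labelled as hypoxia were taken, which gave 3 triCH1 and 3 control arrays, 6 of the 12 arrays of the study. The other 6 arrays held the same 6 lines after 6 h at 21% oxygen and serve as the reference for how the lines differed without hypoxia. The control lines had 1 conditional (floxed) allele beside a wild-type one, of Crebbp, the gene of CBP, in line flox1 and of Ep300, the gene of p300, in lines flox2_1 and flox2_2. The triCH1 lines lacked CH1 in 3 of 4 alleles and had a floxed copy as the last one, of Crebbp in triCH1flox1 (CBP CH1/flox;p300 CH1/CH1) and of Ep300 in triCH1flox2_1 and triCH1flox2_2 (CBP CH1/CH1;p300 CH1/flox). Cells of all 6 lines came from e14.5 embryos, had been infected with an adenovirus carrying Cre recombinase at passage 3 and had then expanded at least 100-fold. Controls therefore also carried a Cre-treated floxed allele and were not wild type. At treatment all cultures were subconfluent, in medium with 10% serum that had been equilibrated beforehand, at 37 °C with 5% CO2, and lysed directly for RNA. Genotype, line and any effect of propagation after Cre cannot be told apart within a single line, and the labels do not say whether like-named lines came from related embryos. The p-values thus measure the spread between these lines' arrays. In fits over all 12 arrays the normoxia and hypoxia arrays of a line count as separate, although 6 lines gave all 12.

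CBP and p300 are histone acetyltransferases that are brought to genes by many transcription factors. Their CH1 (TAZ1) domain is the docking site for the C-terminal activation domain of the hypoxia-inducible factors HIF-1α and HIF-2α, which build up when oxygen-dependent prolyl hydroxylases stop marking them for destruction. CITED2, itself induced by HIF in many cells, competes for the same domain. HIF targets supply glucose transport and glycolysis, blood vessel growth, pH control and the hydroxylases that turn the factor off again, and the comparison asks how their transcripts stood in low oxygen when CH1 was missing.

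RNA was measured on Affymetrix Mouse430_2 arrays, and values are probe set signals in the authors' scaled units. The authors' scale factors were 3.35 to 4.28 in the control and 3.58 to 4.11 in the triCH1 hypoxia arrays, and array backgrounds were 59.0 to 71.3 and 57.7 to 64.3. All 10 fibroblast markers had a mean signal of at least 100, with a summed signal of 154351 to 174218 in control and 138518 to 165502 in triCH1 arrays, although with the replicate block described below Thy1 was lower (adjusted p = 0.00869) and Pdgfra, from a low level, higher (adjusted p = 0.0461). None of the 6 endothelial markers reached that level, nor did the macrophage marker Ptprc or the muscle factors Myod1 and Myog. Summed signals of the muscle (3 of 8 markers at or above 100), macrophage (3 of 6), neural (4 of 5 measured) and adipocyte lists (2 of 4 measured) overlapped between groups, while the neuronal tubulin gene Tubb3 alone did not (230.9 to 342.7 against 60 to 93.7). Those of epithelium (3 of 7) did not, at 6023 to 7722 in control and 3720 to 3891 in triCH1 arrays, and lay almost wholly in Krt19 (5573 to 7281 against 3020 to 3643), while Krt5 and Krt14 stayed under 100. The cartilage and bone list (3 of 6 measured at or above 100) did not overlap either, at 1025 to 3541 against 558.4 to 639.1, and was led by Col2a1. Whether other cells had a part in any result was not tested, and in bulk RNA fewer cells of a type and less RNA per cell cannot be told apart. Where the probes of Crebbp and Ep300 lie relative to CH1 was not examined, so their signals do not check the deletion. The brightest Crebbp probe set gave 1632, 797.3 and 1013 in the controls flox2_1, flox1 and flox2_2 and 1755, 882.2 and 922.2 in triCH1flox2_1, triCH1flox1 and triCH1flox2_2, and the Ep300 probe set gave 378.8, 412.3 and 206.7 against 254.6, 836.4 and 231.4. Crebbp and Ep300 overlapped between the groups and differed by 0.04 ± 0.40 and 0.20 ± 0.43 on the log2 scale (SE, limma adjusted p = 0.986 and 0.927). Xist, which coats the inactive X, had signals of 896.0, 2.3 and 1.3 in the controls and 24.5, 986.7 and 1122 in the triCH1 lines, in the same order, so that it was high in 1 of 3 control and 2 of 3 triCH1 lines. Eif2s3y on the Y chromosome gave 1.7, 919.4 and 1821 against 1173, 3.8 and 3.8, high where Xist was low. Each pair of like-named lines thus held 1 line high in Xist and 1 high in Eif2s3y. The replicate block described below compares such lines within each pair.

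In hypoxia the triCH1 lines had lower transcripts of a small group of genes, 4 of them HIF targets, and 1 gene was higher. Of 18903 probe sets tested, 13 were called lower (0.0688%) and 1 higher (0.00529%) at a Benjamini-Hochberg adjusted p under 0.05 in limma, while 720 (3.81%) and 786 (4.16%) had an unadjusted p under 0.05. The lower genes were the HIF targets Pgf, Ankrd37, Egln3 and Hilpda, and AA467197, Srpx2, Rasl11b, Ackr3, Nppb, Gem, Cthrc1, Bpgm and Btg1. Wnt10a was the higher one. In hypoxia, lines that share a name apart from the prefix triCH1 deviated together weakly, with correlations of 0.154 to 0.224. In normoxia the flox2_2 pair did not (−0.009). With each such pair as a replicate block, 169 probe sets of 129 named genes were lower (0.894%) and 60 of 42 named genes higher (0.317%). All 14 found without the block were among them. In the blocked fit over the 6 hypoxia arrays alone these were 93 and 18, again with all 14. The median difference over 10059 genes, each given by 1 probe set, was 0.03 on the log2 scale, and their lower and upper quartiles were −0.15 and 0.23.

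The number called without the block rested on single lines. Without the hypoxia array of flox2_1, flox1, flox2_2, triCH1flox2_1 or triCH1flox2_2, between 0 and 5 probe sets were called lower and 0 higher, and 1, 2, 4, 0 and 1 of the 14 remained. Without that of triCH1flox1, 19 were lower and 12 of the 14 remained, and without both arrays of that line 182 were lower and 94 higher with all 14 kept. Among the probe sets called in the blocked fit, triCH1flox1 often lay on the control side of the other triCH1 lines. It had the highest triCH1 signal in 116 of the 169 lower ones, and the lowest in 51 of the 60 higher ones. These probe sets were called from the same arrays, and the same counts over all probe sets were not made. The blocked fit also shrank, to 72 lower and 18 higher without the flox2_1 pair and 38 and 8 without the flox2_2 pair, and stood at 175 and 66 without the flox1 pair. Of the 229 probe sets called with the block, 65 stayed called without the flox2_1 pair, 122 without the flox1 pair and 41 without the flox2_2 pair. All 229 kept their sign in these 3 fits. The fits reuse most of the arrays by which the 229 were selected, so the kept sign is no independent support. With the log2 signal of Xist as a covariate 5 were lower and 0 higher, including 4 of the 14, whereas with Xist and the block together 300 were lower and 152 higher, including all 14. Of the 14, Srpx2 lies on the X chromosome and none on the Y.

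**Figure D1:**
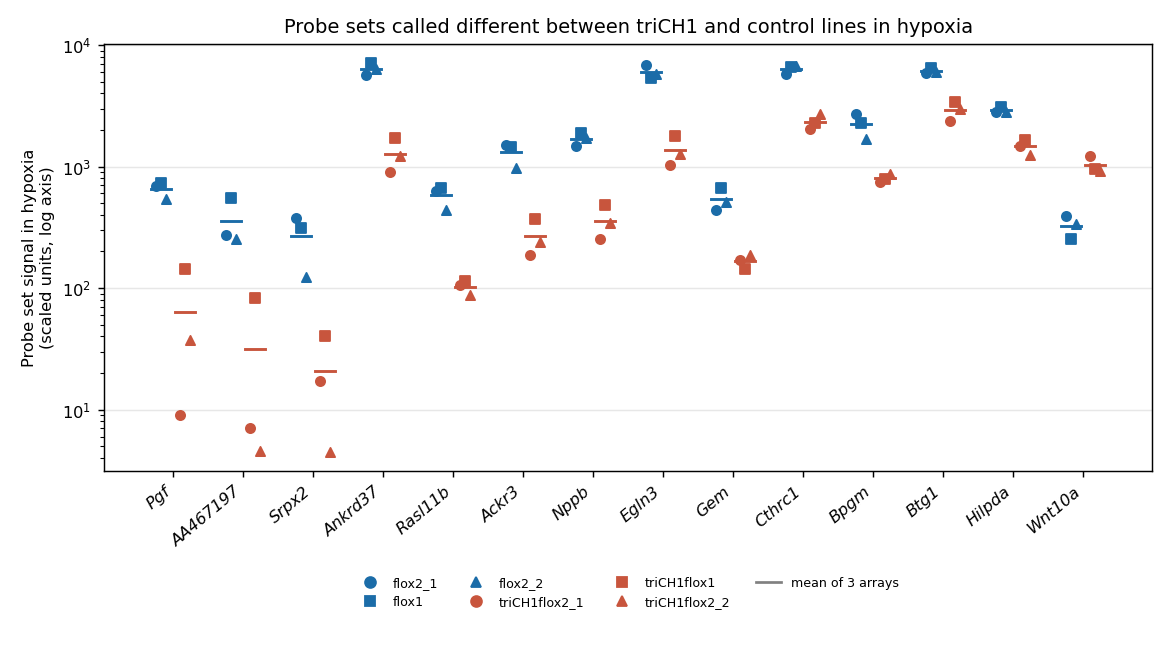
Signals of the 14 probe sets called different in hypoxia (log axis, scaled units), with 1 point per array, blue for control and red for triCH1 lines, a shared marker shape for like-named lines and bars at the mean of 3 arrays. In all 14 the 3 triCH1 points lie on 1 side of the 3 control points (6.05% of all probe sets were lower and 7.1% higher without overlap), furthest apart in Srpx2, AA467197 and Pgf.

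Pgf, which encodes placental growth factor, a ligand of the VEGF receptor FLT1, had the largest difference on the log2(signal + 20) scale, while the ratio of means was larger for Srpx2 (13.1) and AA467197 (11.4). Its signal was 697.7, 727.7 and 540.8 in flox2_1, flox1 and flox2_2 and 9.0, 144.9 and 37.1 in triCH1flox2_1, triCH1flox1 and triCH1flox2_2. Every triCH1 array lay far below every control array, and triCH1flox1 was the highest of them. The mean was 655.4 ± 100 against 63.7 ± 71.7 (SD, n = 3), 10.3-fold lower, or −3.37 ± 0.54 on the log2(signal + 20) scale (SE, limma, adjusted p = 0.0391). Signals near the floor of the array, as in triCH1flox2_1, make the size of that fold uncertain: it was −4.09 to −2.28 over the other settings and omissions tried. In normoxia Pgf was low in both, at 21.6, 80.9 and 20.8 in control and 23.5, 11.8 and 14 in triCH1 arrays. Hypoxia raised it by 3.59 ± 0.54 in control lines (adjusted p = 0.0026), against 0.85 ± 0.54 in triCH1 lines (adjusted p = 0.917).

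Egln3 encodes the prolyl hydroxylase PHD3, one of the enzymes that mark HIF-α for destruction and itself a HIF target. Its signal was 6799, 5388 and 5747 in the control and 1028, 1780 and 1264 in the triCH1 arrays, in the order of lines used for Pgf and kept below. The groups were separated by a wide gap, with triCH1flox1 again nearest to the controls. Egln3 was 4.40-fold lower, by −2.15 ± 0.25 on the log2 scale (adjusted p = 0.00677). It was called in 16 of 16 other settings, some of which used fewer arrays, and in 5 of 12 with an array or a line left out. Ankrd37, an ankyrin repeat gene that is a common hypoxia marker, gave 5628, 7052 and 6286 against 904.0, 1703 and 1231, which was 4.94-fold lower (−2.33 ± 0.33, adjusted p = 0.027). The arrays did not overlap. Hilpda, whose product protects lipid droplets by holding back a lipase, gave 2807, 3104 and 2791 against 1489, 1668 and 1251. Its groups, too, were apart, by a smaller factor of 1.97 (−0.98 ± 0.15, adjusted p = 0.0391).

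Promoter windows are shown for targets that were lower and for one that was not called. Windows of 250 bases before to 50 after a RefSeq transcript start (GRCm38.p6) are printed for Egln3, Ankrd37 and Hilpda, which were lower in triCH1 lines, and for Bnip3, a strongly induced HIF target whose signal in hypoxia overlapped between the groups. Capitals mark the core of the hypoxia response element, ACGTG or GCGTG, on either strand (read as CACGT or CACGC on the other one), which includes the E-box CACGTG.
Egln3, minus strand, chr12:54203825-54204124: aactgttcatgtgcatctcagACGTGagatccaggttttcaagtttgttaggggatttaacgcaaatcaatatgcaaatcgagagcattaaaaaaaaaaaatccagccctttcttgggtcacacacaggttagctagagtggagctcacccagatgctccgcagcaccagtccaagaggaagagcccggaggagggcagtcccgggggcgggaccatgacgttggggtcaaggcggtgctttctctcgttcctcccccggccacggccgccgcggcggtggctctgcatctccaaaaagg
Ankrd37, minus strand, chr8:45999801-46000100: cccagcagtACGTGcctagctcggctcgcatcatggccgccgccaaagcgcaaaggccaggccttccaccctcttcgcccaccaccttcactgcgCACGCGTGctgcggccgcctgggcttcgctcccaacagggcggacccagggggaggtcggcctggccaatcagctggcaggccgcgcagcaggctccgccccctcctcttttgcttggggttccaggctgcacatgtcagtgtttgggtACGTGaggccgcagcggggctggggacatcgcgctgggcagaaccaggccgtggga
Hilpda, plus strand, chr6:29272376-29272675: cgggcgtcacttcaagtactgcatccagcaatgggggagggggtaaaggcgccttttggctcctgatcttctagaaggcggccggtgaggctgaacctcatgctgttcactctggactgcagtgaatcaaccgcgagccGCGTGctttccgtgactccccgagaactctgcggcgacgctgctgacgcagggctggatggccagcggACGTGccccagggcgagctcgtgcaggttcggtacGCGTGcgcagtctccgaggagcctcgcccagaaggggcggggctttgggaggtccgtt
Bnip3, minus strand, chr7:138909457-138909756: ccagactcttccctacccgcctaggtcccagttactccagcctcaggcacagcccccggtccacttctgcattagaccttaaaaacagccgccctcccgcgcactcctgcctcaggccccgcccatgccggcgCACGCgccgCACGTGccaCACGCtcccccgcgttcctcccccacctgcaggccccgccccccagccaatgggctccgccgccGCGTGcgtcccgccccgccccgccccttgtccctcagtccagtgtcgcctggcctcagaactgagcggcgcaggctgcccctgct
The core was found 1 time in the Egln3 window, 4 times in that of Ankrd37, 3 times in that of Hilpda and 5 times in that of Bnip3. Overlapping matches, as in CACGCGTG of Ankrd37 and CACGTG of Bnip3, were counted separately. The letters alone thus did not separate these genes. The other RefSeq window of Hilpda held it 1 time, and the windows of Pgf, which are not printed, held it 0 and 1 times. Among the 13 HIF targets lower in the blocked fit, 10 had a window and 10 of these held the core in at least 1 window. Of the other 48 targets measured, 40 had a window and 34 held it (85.0%), against 46.7% of all 27025 genes with a window. A match describes these letters and is not evidence of a bound site.

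Over both lists of HIF targets the differences ran mostly one way and varied widely in size. Of the 43 measured targets outside glycolysis 39 had a lower and 4 a higher value in triCH1 lines, with a median of −0.45. The 4 called lower are those above (0.119% of all genes given by 1 probe set were), and 0 were higher (0.00994%). With the block 10 were called lower (1.21% of all genes), and 25 were lower without overlap between the arrays (6.53% of all genes) against 0 that were higher (7.38% of all genes). The count of 4 fell to 0 without the hypoxia array of flox2_1, triCH1flox2_1 or triCH1flox2_2, to 1 without that of flox1 or flox2_2, and stayed at 4 without that of triCH1flox1. The count was 11 without both arrays of the line triCH1flox1, where 109 of all 10059 genes were called lower. It was 0 without those of flox1, flox2_1, flox2_2 or triCH1flox2_2 and 1 without those of triCH1flox2_1. With the floxed gene as a covariate it was 9, where 74 of all 10059 genes were called lower. Of the 18 measured genes of glucose transport and glycolysis 16 had a lower and 2 a higher value (14 and 4 after quantile normalization), with a median of −0.20. None passed without the block, 5 had an unadjusted p under 0.05 in the lower direction (4.23% of all genes), and 3 were lower with it. Without the line triCH1flox1, 3 passed in the unblocked fit, and with the floxed gene as a covariate 2 did, against the 109 and 74 of all genes.

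**Figure D2:**
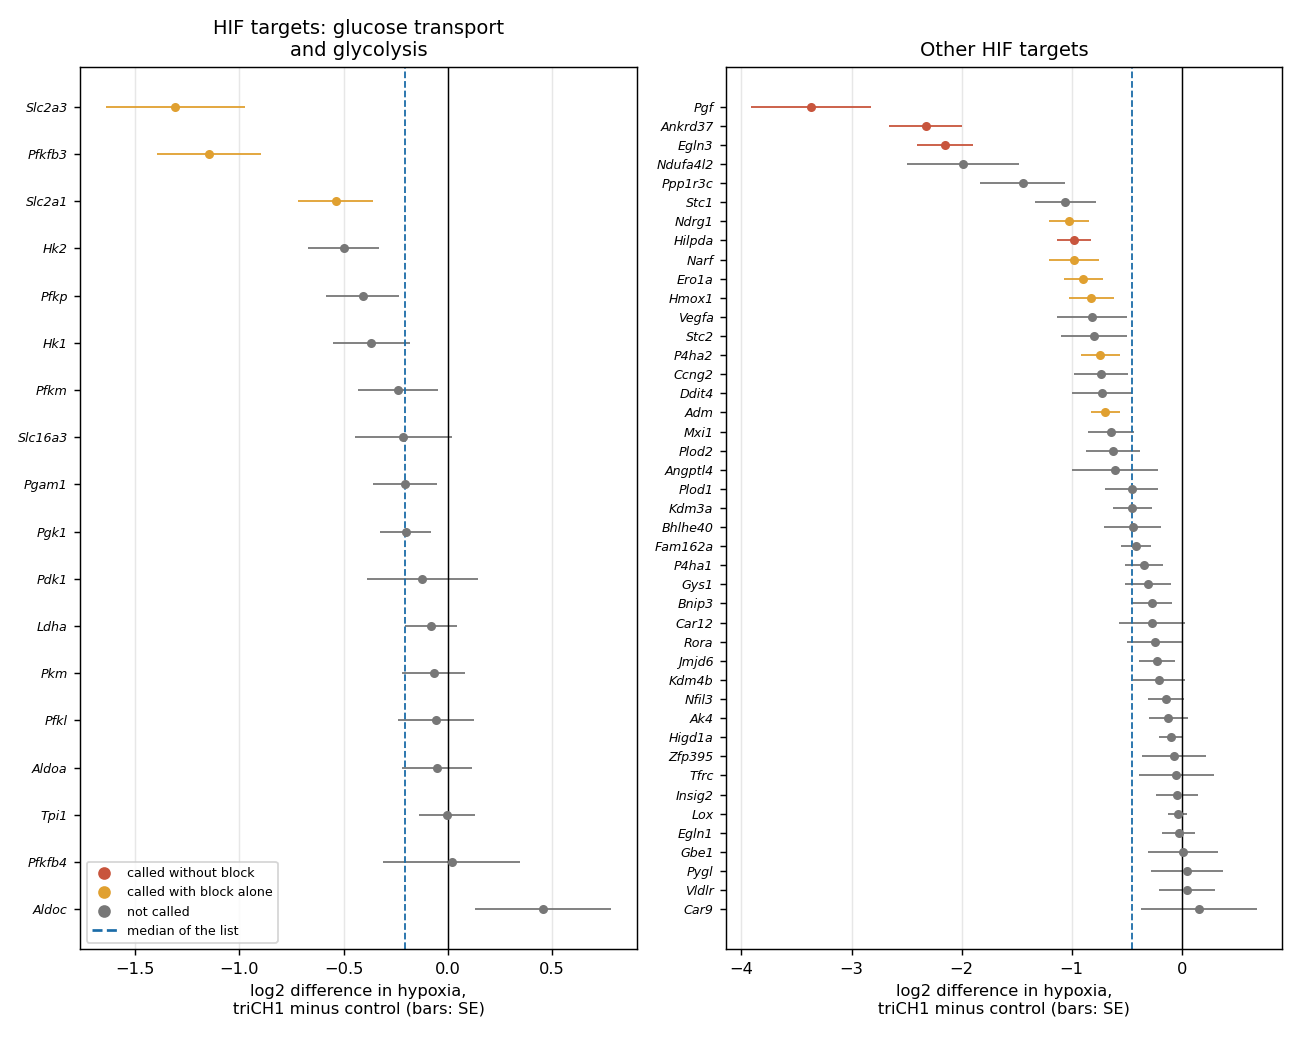
Log2 differences in hypoxia, triCH1 minus control, of 18 HIF targets of glucose transport and glycolysis and 43 other HIF targets, with SE bars from limma, coloured by whether a gene was called without the block, with the block alone or not at all. The dashed lines mark the list medians of −0.20 and −0.45, and the values reach from Pgf at −3.37 to Aldoc at 0.46.

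Among the glycolytic targets Slc2a3, Pfkfb3, Slc2a1 and Hk2 stood lowest. Slc2a3, the gene of the high-affinity glucose transporter GLUT3, gave 1349, 1428 and 1241 in control and 476.2, 775.8 and 397.1 in triCH1 arrays. These did not overlap (−1.31 ± 0.33), and the adjusted p was 0.282 without and 0.0245 with the block. Pfkfb3, whose product makes the activator fructose 2,6-bisphosphate of phosphofructokinase, gave 2560, 2483 and 1874 against 922.1, 1278 and 901.5 (−1.15 ± 0.25, adjusted p = 0.172, and 0.00748 with the block). Again all triCH1 arrays lay below all control arrays. The widely expressed glucose transporter gene Slc2a1 gave 25026, 29800 and 25571 against 15331, 23521 and 17230. Its arrays did not overlap, although triCH1flox1 came close to the controls (−0.54 ± 0.18, adjusted p = 0.445, and 0.0224 with the block). Hk2, the hexokinase that takes up the first step after transport, gave 7532, 8053 and 6000 against 5536, 6006 and 3855 and overlapped. The phosphofructokinase gene Pfkl (−0.06 ± 0.18) and Pfkfb4, a relative of Pfkfb3 (0.02 ± 0.33), were near 0. Further down the pathway Ldha (−0.08 ± 0.13), Pkm (−0.07 ± 0.15), Tpi1 (−0.01 ± 0.13) and Aldoa (−0.05 ± 0.17) had differences smaller than their errors, and so did Pdk1, the kinase that restrains pyruvate oxidation, at −0.12 ± 0.27. Pgk1, which makes the first ATP of the pathway, was at −0.20 ± 0.12 without overlap between the arrays, and the mutase gene Pgam1 was at −0.20 ± 0.15 with overlap. Neither Pgk1 nor Pgam1 was called in either fit. Aldoc went the other way, higher without overlap between the arrays (0.46 ± 0.33), and was not called in either fit.

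The targets that passed with the block alone came from several branches of the response. Adm, which encodes the vasodilator adrenomedullin, gave 12683, 14417 and 13188 in control and 9366, 7819 and 7750 in triCH1 arrays, and Ndrg1, a stress-induced gene, gave 7500, 6289 and 5492 against 3173, 3407 and 2808. Neither pair of groups overlapped, and the differences were −0.69 ± 0.13 and −1.03 ± 0.18 (adjusted p = 0.0954 and 0.0632, and 0.0178 and 0.00456 with the block). Ero1a, an oxidase that forms disulfide bonds in the endoplasmic reticulum, gave 7529, 7933 and 7595 against 4310, 4957 and 3286, and P4ha2, a collagen prolyl hydroxylase, 8216, 8504 and 6222 against 4871, 5385 and 3539. Both were lower in every triCH1 array (−0.89 ± 0.18 and −0.74 ± 0.18, adjusted p = 0.112 and 0.218, and 0.00456 and 0.00877 with the block). Narf and the heme oxygenase gene Hmox1 were lower by −0.98 ± 0.23 and −0.82 ± 0.20, with adjusted p = 0.031 and 0.0152 with the block and 0.19 and 0.249 without. Large differences with wide errors were not called in either fit: Ndufa4l2, which encodes a protein related to a respiratory chain subunit, gave 881.1, 488.1 and 639.9 against 137.8, 196.8 and 120.6 (−1.99 ± 0.51, adjusted p = 0.282, and 0.0645 with the block). The glycogen-targeting subunit gene Ppp1r3c was at −1.45 ± 0.39 and the stanniocalcin gene Stc1 at −1.06 ± 0.28 (block adjusted p = 0.093 and 0.0901). Vegfa, the main angiogenic ligand, averaged 3321 in control and 1943 in triCH1 arrays without overlap (−0.81 ± 0.32, block adjusted p = 0.131).

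Other strongly expressed targets stood at similar levels in both groups. Bnip3, a mitophagy receptor, gave 16863, 14392 and 16903 in control and 12324, 13019 and 14427 in triCH1 arrays. The ranges touched, since the highest triCH1 array exceeded the lowest control array (−0.28 ± 0.18, adjusted p = 0.733). Egln1, which encodes PHD2, the main oxygen sensor among the prolyl hydroxylases, gave 5245, 4878 and 4540 against 5169, 5026 and 4212 and fully overlapped. Its difference of −0.03 ± 0.15 stands beside that of −2.15 ± 0.25 for its relative Egln3. Higd1a (−0.10 ± 0.11), Ak4 (−0.12 ± 0.18) and Lox (−0.04 ± 0.09) were likewise near 0, and a gene that misses the threshold is not thereby shown to be equal. Of the 14 measured genes of the HIF pathway itself, Egln3 was called lower and Cited2, the competitor for CH1, was lower with the block. Cited2 gave 7651, 8376 and 7732 against 5237, 6624 and 4644 (−0.54 ± 0.15, adjusted p = 0.311, and 0.0272 with the block). Hif1a (0.27 ± 0.20), Arnt (−0.16 ± 0.24), Epas1 (−0.53 ± 0.35) and Vhl (−0.28 ± 0.22) overlapped between the groups.

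The lower HIF targets differed in how much of the difference was present without hypoxia. In the control lines 44 of the 61 measured targets rose in hypoxia (0.925% of all genes and 0.799% of all probe sets did), and 35 rose in the triCH1 lines (0.716%), 34 of them in both. The genotype difference was more negative in hypoxia than in normoxia for 55 of the 61, against 5076 of all 10059 genes. No probe set passed a test of that shift in limma. In the fit without a block 131 had an unadjusted p under 0.05, and 302 with each line as a fixed block. Both counts lie below the 945 expected at that level if no probe set shifted. With line as a fixed block Egln3 had the smallest adjusted p, 0.341. In that line-blocked fit 15 targets had an unadjusted p under 0.05 toward a lower value in hypoxia (0.686% of all genes did) and 0 toward a higher one (0.676%). The shift was −2.75 for Pgf (unadjusted p = 0.00144 with line as a block), −1.40 for Egln3 (1.8e-05), −1.03 for Pfkfb3 (0.000586), −0.80 for Ndrg1 (0.00195), −0.77 for Hilpda (0.00406) and −0.65 for Adm (0.00099). For Ankrd37 it was −0.62 (0.0487), on top of a difference of −1.70 ± 0.33 already present in normoxia. Cited2, Vegfa and Stc1 had nearly the same genotype difference at both oxygen levels, with shifts of −0.07, −0.13 and −0.04.

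**Figure D3:**
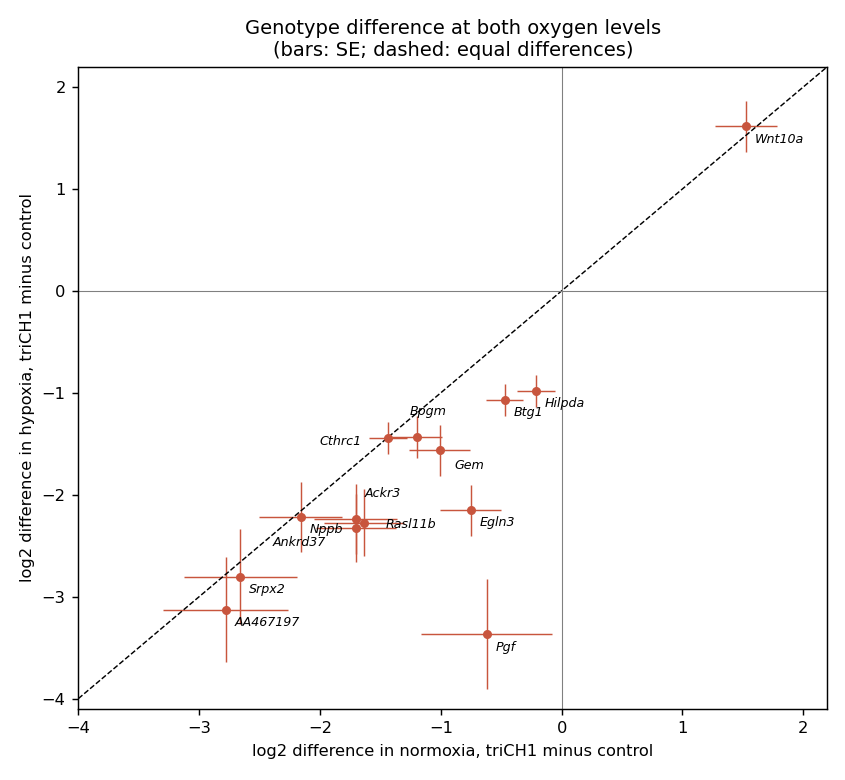
Genotype difference (triCH1 minus control, log2) in hypoxia on the vertical and in normoxia on the horizontal axis for the 14 called probe sets, with SE bars, and the dashed line marking equal differences. Pgf, Egln3 and Hilpda lie furthest below it relative to their normoxia value, while Cthrc1, Nppb, Srpx2 and Wnt10a lie on or near it. All 14 have the same sign at both oxygen levels.

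The other called genes are not classic HIF targets, and several differed about as much without hypoxia. Cthrc1, a secreted matrix protein gene tied to Wnt signalling, had the smallest p of all probe sets. Its signal was 5729, 6613 and 6716 in control and 2024, 2287 and 2686 in triCH1 arrays, with little spread inside either group, and the difference was −1.44 ± 0.16 (adjusted p = 0.00631). It was called in 9 of 12 fits with an array or a line left out. In normoxia the difference was −1.44 too, and the shift was −0.01 ± 0.22. Wnt10a, which encodes a Wnt ligand, was the single gene called higher, with 390.1, 253.6 and 334.3 against 1213, 959.7 and 922.8. Each triCH1 array exceeded each control array, and the difference was 1.61 ± 0.25 (adjusted p = 0.0391), against 1.53 ± 0.25 in normoxia. Nppb, the gene of B-type natriuretic peptide, gave 1489, 1895 and 1712 against 254.4, 479.0 and 341.4, which was 4.74-fold lower (−2.22 ± 0.34, adjusted p = 0.0355, and −2.16 ± 0.34 in normoxia).

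Ackr3, a scavenger receptor for the chemokine CXCL12, gave 1506, 1442 and 980.4 in control and 188.1, 371.9 and 240.7 in triCH1 arrays (−2.24 ± 0.34, adjusted p = 0.0355). Rasl11b, a small GTPase gene, gave 630.5, 671.5 and 441.3 against 105.2, 115.1 and 88.5 (−2.27 ± 0.33, adjusted p = 0.027). In both genes the triCH1 arrays clustered far below the controls, and they were −1.70 ± 0.34 and −1.64 ± 0.33 in normoxia. Srpx2, a secreted sushi repeat protein gene, gave 373.8, 313.6 and 122.3 against 17.3, 40.1 and 4.5 (−2.80 ± 0.47, adjusted p = 0.0473), and AA467197 gave 275.2, 547.3 and 252.5 against 7.1, 82.4 and 4.6 (−3.13 ± 0.52, adjusted p = 0.0461). Their triCH1 signals were near the floor of the array, as they were in normoxia. Gem, a GTPase that restrains calcium channels, gave 439.1, 668.3 and 515.5 against 171.2, 143.3 and 188.7 (−1.57 ± 0.25, adjusted p = 0.0391). Bpgm, which makes bisphosphoglycerate from a glycolytic intermediate, gave 2724, 2274 and 1694 against 742.6, 789.3 and 871.9 (−1.43 ± 0.21, adjusted p = 0.027). Its other tested probe sets, 2 in number, had the same sign. Btg1, an antiproliferative gene, gave 5871, 6455 and 5966 against 2377, 3424 and 2983 and was 2.08-fold lower (−1.07 ± 0.15, adjusted p = 0.027). In normoxia it was at −0.47 ± 0.15, a shift with an unadjusted p of 0.017 in limma without a block. Its 1 other tested probe set, which was brighter, had the same sign and was not called. Hypoxia raised the called one by 0.742 ± 0.155 in control lines (limma adjusted p = 0.0395), against 0.145 ± 0.155 in triCH1 lines (adjusted p = 0.957).

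Apart from Wnt10a, no probe set passed in the higher direction without the block. The 5 genes with the smallest p there were Plekhg5, Sting1, the adaptor of cytosolic DNA sensing, Grwd1, a ribosome biogenesis factor, Polr1b, a large subunit of RNA polymerase I, and Tmem176a. Plekhg5 gave 97.4, 114.0 and 91.0 in control and 242.5, 260.5 and 239.5 in triCH1 arrays, and Sting1 gave 355.8, 391.1 and 429.9 against 851.4, 871.8 and 720.1. Neither overlapped, and the differences were 1.15 ± 0.22 and 1.02 ± 0.20 (adjusted p = 0.0954 and 0.121, and 0.0272 and 0.0201 with the block). Grwd1, Polr1b and Tmem176a were at 0.71 ± 0.15, 0.71 ± 0.15 and 1.07 ± 0.24 (adjusted p = 0.155, 0.161 and 0.182, and 0.0201, 0.0363 and 0.00748 with the block).

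Cell cycle genes stood higher in the triCH1 lines in hypoxia. All 26 measured DNA replication genes and all 24 mitotic genes had a higher value (25 of the 26 after centring on the array median), with medians of 0.63 and 0.53, against 5491 higher and 4568 lower among all genes. Of the replication genes 0 passed without the block, 19 had an unadjusted p under 0.05 (4.59% of all genes in that direction), 9 were higher without overlap (7.38% of all genes), and 4 were higher with the block (0.358%). These were the helicase subunit genes Mcm3 and Mcm5 and the origin licensing genes Cdc6 and Cdt1. In the blocked fit over the 6 hypoxia arrays alone, 1 replication gene was called higher (10 of all 10059 genes were). Cdt1 gave 1107, 1078 and 1294 in control and 3058, 1765 and 2961 in triCH1 arrays. All triCH1 arrays exceeded the controls, with triCH1flox1 nearest to them (1.11 ± 0.32, adjusted p = 0.364, and 0.0152 with the block). Mcm5 gave 2052, 1919 and 2183 against 4420, 2617 and 4811 in the same pattern (0.89 ± 0.26, adjusted p = 0.37, and 0.0289 with the block). Cdc6 gave 284.1, 238.7 and 434.4 against 817.7, 347.6 and 1061, and there triCH1flox1 lay below the highest control (1.07 ± 0.42, adjusted p = 0.535, and 0.0272 with the block). Without the line triCH1flox1, 12 replication genes and 3 mitotic genes were called higher in the unblocked fit, where 70 of all 10059 genes were. Of the mitotic genes 0 passed in limma with all lines, with or without the block, 9 had an unadjusted p under 0.05, and the largest value was that of the checkpoint kinase gene Ttk (0.83 ± 0.56). The medians were nearly the same in normoxia, 0.65 and 0.47.

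The kinase inhibitor genes Cdkn2a, Cdkn2b and Cdkn1a were lower in the blocked fit, whereas Cdkn1c was not called (block adjusted p = 0.362). Cdkn2a, which encodes the tumour suppressors INK4A and ARF, gave 778.5, 1508 and 876.1 in control and 454.3, 521.9 and 326.9 in triCH1 arrays, and its neighbour Cdkn2b gave 2312, 4534 and 3066 against 1319, 2542 and 1261. The Cdkn2a arrays did not overlap, while for Cdkn2b triCH1flox1 exceeded flox2_1. Their differences were −1.21 ± 0.33 and −0.97 ± 0.40 (adjusted p = 0.321 and 0.582, and 0.00858 and 0.0272 with the block). Cdkn1a, the p53 target that encodes a broad kinase inhibitor, gave 12447, 17356 and 12551 against 7505, 11681 and 7052 (−0.71 ± 0.28, adjusted p = 0.559, and 0.0272 with the block). In all 3 genes the flox1 pair was the highest of its group. Cdkn2a and Cdkn2b were picked after their values were seen.

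**Figure D4:**
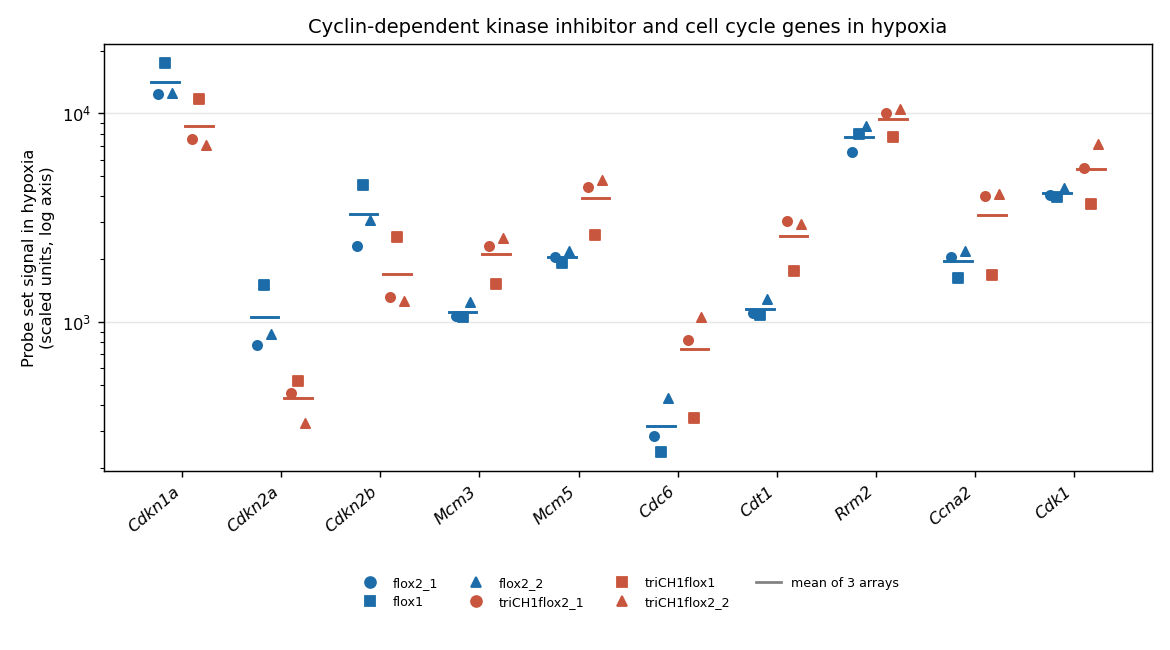
Signals in hypoxia (log axis, scaled units) of 3 kinase inhibitor genes and 7 genes of replication and division, 1 point per array and bars at the mean of 3 arrays, with marker shapes for like-named lines. The triCH1 means are lower for Cdkn1a, Cdkn2a and Cdkn2b and higher for the other genes, and the squares of triCH1flox1 lie nearest to the controls in Mcm3, Mcm5, Cdc6 and Cdt1.

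Plac8, Col2a1, Rgs16 and Sox11 had some of the largest differences among the genes called lower in the blocked fit alone. Plac8 gave 3740, 3500 and 4246 in control and 218.5, 1039 and 506.6 in triCH1 arrays. These were far apart and gave −2.91 ± 0.54 (adjusted p = 0.0878, and 0.00379 with the block). Col2a1, the cartilage collagen gene, gave 2537, 1406 and 562.5 against 211.6, 348.8 and 72.0 (−2.69 ± 0.54, adjusted p = 0.121, and 0.00456 with the block). The spread inside both groups was wide, but all triCH1 arrays lay below all controls. Rgs16, a regulator of G protein signalling, and the transcription factor gene Sox11 were at −2.40 ± 0.71 and −2.20 ± 0.58 (block adjusted p = 0.00456 and 0.0301). The genes given in this paragraph differed in normoxia by −2.91, −2.23, −1.85 and −1.98.

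Contractile genes, usually expressed by smooth muscle cells and myofibroblasts, had 14 of 15 members at a lower value, with a median of −0.12. Actg2, a smooth muscle actin, gave 10661, 12312 and 10913 in control and 3047, 7398 and 4895 in triCH1 arrays, and Mylk, the myosin light chain kinase, gave 982.5, 984.5 and 736.9 against 557.1, 396.1 and 463.7. Both had no overlap (−1.23 ± 0.33 and −0.91 ± 0.20), and were called with the block alone (adjusted p = 0.00912 and 0.0377). The 26 collagen and fibrillar matrix genes had a median of −0.19, 22 of them at a lower value, and Thbs2 was lower with the block (−1.28 ± 0.39, block adjusted p = 0.0182). The proteoglycan genes Lum and Dcn had the largest positive values of that list, 2.07 ± 0.90 and 2.17 ± 0.67, carried mainly by triCH1flox2_1. Lum was 226.5, 104.7 and 506.8 against 4269, 312.4 and 815.9, so that 1 line set the mean. Neither was called in either fit.

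Wnt genes differed in both directions. Beside Cthrc1 and Wnt10a, Dkk3, a secreted protein of the Dickkopf family, gave 1823, 1710 and 1263 in control and 862.0, 528.0 and 310.7 in triCH1 arrays, and the Wnt receptor gene Fzd7 gave 3686, 4117 and 2966 against 2043, 2557 and 1561. Neither overlapped (−1.56 ± 0.33 and −0.81 ± 0.22), and both were called with the block alone (adjusted p = 0.0017 and 0.0137). Of 19 measured Wnt genes 12 had a lower and 7 a higher value. Among 15 chemokine and NF-kB genes, with 11 at a lower value, Ackr3 was the one called. The p53 target list had 14 of 19 members at a lower value, and Cdkn1a and Pmaip1, which encodes the cell death activator NOXA, were lower with the block. Pmaip1 gave 1816, 4278 and 3226 against 440.9, 1843 and 591.1, overlapping by a small margin (−1.87 ± 0.53, block adjusted p = 0.00401). The CREB target list held Dusp1, a phosphatase for MAP kinases, and the neurotrophin gene Bdnf, at −0.82 ± 0.23 and −0.73 ± 0.17 (block adjusted p = 0.0378 and 0.0398), among 14 members with 10 at a lower value. Interferon and MHC class I genes had 11 of 13 at a higher value, with a median of 0.26 in hypoxia and 0.34 in normoxia. None was called in limma with or without the block, and 5 had an unadjusted p under 0.05 in the higher direction (4.59% of all genes). Likewise, 5 were higher without overlap (7.38% of all genes). The highest were the peptide transporter gene Tap1 (1.68 ± 0.38) and Oas1a (1.58 ± 0.49).

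Imprinted genes, IGF system genes and Hox genes had medians of −0.27, −0.19 and −0.19, with 0 called without the block and 2, 2 and 2 members at an unadjusted p under 0.05, 1 in each direction in every list (4.23% of all genes were lower and 4.59% higher at that level). The Notch-related growth regulator Dlk1 was lower (662.0, 554.5 and 752.2 against 298.3, 383.2 and 303.3, block adjusted p = 0.0253) and the IGF binding protein gene Igfbp6 higher (979.9, 1481 and 1549 against 2159, 2822 and 2669, block adjusted p = 0.012) in the blocked fit. Neither overlapped, at −0.95 ± 0.19 and 0.94 ± 0.25, and Hox genes had no call in either fit. The early response gene Ier3 was also lower with the block (−0.73 ± 0.15, block adjusted p = 0.00519), in a list of 18 immediate early genes with a median of −0.12. Of that list 13 had a lower and 5 a higher value. At an unadjusted limma p under 0.05, 2 were lower and 4 higher. Egr3 (0.83 ± 0.34) and Fos (0.60 ± 0.18) were higher and not called in either fit. The stress response list and the lists of housekeeping programmes had medians close to 0. The medians were 0.02 for 24 stress response genes of the endoplasmic reticulum and the integrated pathway, −0.05 for 28 genes of oxidative phosphorylation, 0.03 for 17 of cholesterol synthesis and −0.02 for 22 ribosomal protein genes, and 0 of these genes were called with or without the block in limma (0, 0, 2 and 0 had an unadjusted p under 0.05). Among 15 acetyltransferase and coactivator genes, with a median of 0.10, Cited2 was the one called with the block.

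**Figure D5:**
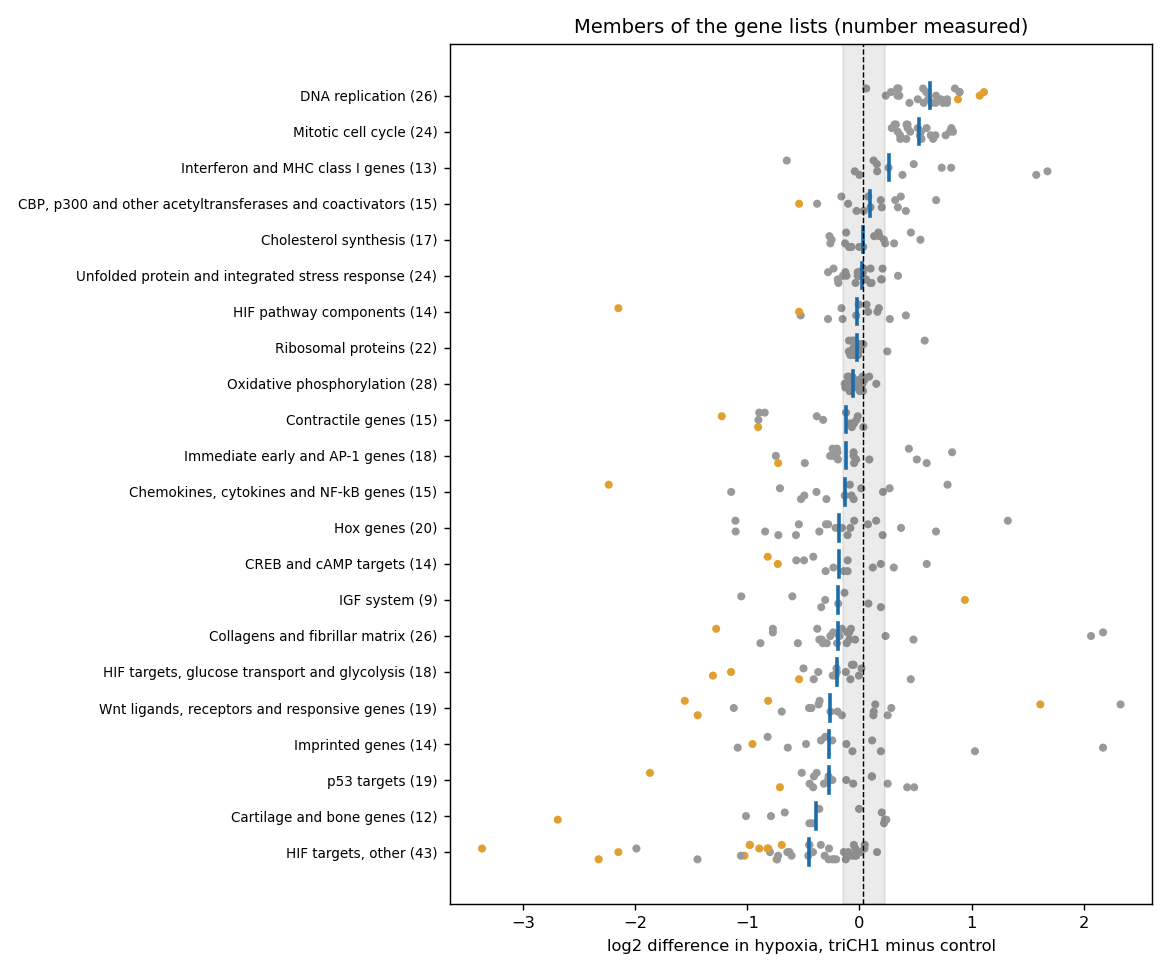
Log2 differences in hypoxia, triCH1 minus control, of the measured members of 22 gene lists, 1 point per gene, orange where the gene was called with the replicate block. Blue bars mark list medians, the dashed line the median of all genes (0.03) and the grey band their quartiles (−0.15 to 0.23). HIF targets outside glycolysis have the lowest median and DNA replication genes the highest.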

How the data were processed

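The deposited values are intensity signals per probe set, which per the labels the authors computed by the Affymetrix Statistical algorithm with a target of 500. No other normalization was applied, and the software version is not given in the sources used here. Of 45101 probe sets, 64 controls were left out. Gene symbols came from the array's annotation table, which gave 34945 probe sets 1 symbol, 932 several and 9160 none, and those without exactly 1 were not named. Probe sets averaging 100 or more over 12 arrays (18903) were tested as log2(signal + 20) in a model of the 4 group means, which left 8 residual degrees of freedom. The replicate block over 12 arrays left 6, the 6 hypoxia arrays alone 4, and these with the block 2. The fits over 12 arrays count the arrays of a line as separate. With line as a random block, the correlation within lines was estimated at 0.297. limma 3.58.1 under R 4.3.3 was used (lmFit, then eBayes with trend), two-sided, with Benjamini-Hochberg adjustment over all tested probe sets and a call at an adjusted p under 0.05. Python 3.11.15 with pandas 2.3.3 made the tables. A gene in a list is given by its brightest tested probe set. Errors are SE of log2 differences or SD of signals.

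The block paired lines by their names in the labels. Deviations from the group means correlated within these pairs at 0.154 (flox2_1), 0.224 (flox1) and 0.203 (flox2_2) in hypoxia, and at 0.372, 0.322 and −0.009 in normoxia. The pairing rests on these names and correlations, since no label states a shared litter. Named genes were the called ones without overlap (12 at most in each direction), the 5 with the smallest p where fewer than 5 passed, the 5 called with the largest shift from normoxia, the targeted and sex-linked genes and up to 4 members per list. Genes called with the block were named after their values were seen. The comparison, its genes and the gene lists were chosen with earlier results of these data known. In simulated data with 18903 probe sets, changes of 1 and 2 log2 units in 100 each were called in 39 and 90% of cases, with 2 false calls. Each simulated array was drawn independently, without line or pair effects. These rates therefore do not show how the fits behave on arrays that share a line. Alternatives concerned the pseudocount, the filter, normalization, the variance model, blocks and covariates, the lines used, and the omission of arrays and lines.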

Additional observations from a re-analysis of the deposited data

How the results depend on the processing

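With 3 arrays per group, the number of arrays limits every value, and transcripts near the floor of the array have uncertain folds. The 13 lower and 1 higher probe sets became 2 and 0 without the variance trend, 6 and 0 from the 6 hypoxia arrays alone, 35 and 8 from the lines with floxed Ep300 alone, 103 and 26 with the floxed gene as a covariate and 5 and 0 with Xist as one, and centring on the median gave 22 lower. With the replicate block they were 169 and 60, or 93 and 18 over the hypoxia arrays. Omission of an array or a line gave 0 to 182 lower and 0 to 94 higher. Leaving out a pair in the blocked fit, chosen after seeing the data, gave 38 to 175 lower and 8 to 66 higher, and Xist with the block 300 and 152. The cause was not tested. Pseudocounts of 1 and 100, no filter, a filter at 200, quantile normalization, a robust fit, line as a random block and 1 probe set per gene gave 9 to 18 lower and 1 higher. No called difference reversed, in fits that share arrays with the main one. The test of the shift between oxygen levels called 0 probe sets in every fit run. Over the 12 omissions and the 16 other settings, without those added after seeing the data, the median of HIF targets outside glycolysis stayed between −0.63 and −0.40 and that of DNA replication genes between 0.50 and 0.86.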

Other observations

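Some genes not described in detail above were called with the replicate block alone and were picked after their values were seen. Thy1, a surface glycoprotein and one of the fibroblast markers listed, gave 4972, 6208 and 6111 in the control arrays of flox2_1, flox1 and flox2_2 and 2307, 3590 and 2317 in the like-named triCH1 arrays. The groups did not overlap (−1.09 ± 0.24, limma block adjusted p = 0.00869), and the difference was −1.03 in normoxia. Txnip, whose product binds thioredoxin, gave 1803, 2022 and 2062 against 824.3, 1173 and 922.4. It was lower by −1.01 ± 0.21 (block adjusted p = 0.0137), against −0.42 in normoxia. Tslp, a cytokine gene, spanned a wide range, with 1277, 449.6 and 838.8 against 7224, 731.1 and 3119. Each triCH1 array exceeded its like-named control, and the unblocked groups overlapped (1.68 ± 0.87, adjusted p = 0.655, and 0.0305 with the block). U90926 had the same pattern over a wider range, with 632.3, 30.8 and 2946 against 3217, 446.9 and 6657 (2.23 ± 1.45, adjusted p = 0.726, and 0.00456 with the block).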
